A study of Mus musculus with 2 samples.

Results

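The genes of the cytoskeletal motors were examined in a list of C-to-U editing sites from nuclei of mouse cortex. Members were every gene in the list whose symbol begins as a kinesin heavy chain (Kif followed by a digit or c), kinesin light chain (Klc), cytoplasmic dynein subunit (Dync, Dynl), dynactin subunit (Dctn), actin-related protein (Actr) or myosin heavy chain (Myo, Myh). They came to 49 of the 6929 genes listed and held 163 of the 17755 sites. The patterns also take in actin-related proteins that belong to no motor, and these are described apart.

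The list stems from 1 group of 2 libraries. Each was made from cortical nuclei that were stained with an antibody to NeuN, a protein of neuronal nuclei, and sorted. The mice had the genotype APOBEC1-YTH and were given 20 mg/kg tamoxifen once every 24 hours on 5 days, beginning at 10 weeks of age, and tissue was taken 7 days later. APOBEC1-YTH joins a cytidine deaminase to a domain that binds N6-methyladenosine (m6A) in RNA, so that cytidines near m6A are converted to uridine, and the converted positions serve as a readout of m6A. All samples carry the editor and the drug. The labels name neither the promoter that drives the editor nor the cells that express it, and do not say whether a library is 1 animal. Libraries without the editor were not analysed here.

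The table holds 1 editing level per site, a fraction of conversion that is given here in percent. It has no coverage and no value per library, and the sources do not say whether reads of both libraries were pooled or their fractions averaged. The depth is therefore unknown, the spread between the libraries cannot be measured, and no error can be put on a single level. Every SD below is a spread across sites of 1 gene, and intervals on shares are exact 95% intervals that treat genes or sites as independent draws. Sites in neuronal marker genes came to 11, spread over 4 of 7 genes, while Rbfox3 (the NeuN gene), Gad1 and Gad2 had 0. All 4 astrocyte markers had sites (139 in all), as did all 4 oligodendrocyte markers (30), 2 of 3 microglial markers (12) and both endothelial markers (17). The part of these other cell types in the motor gene sites was not tested.

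Kinesins and dyneins walk along microtubules. In axons most kinesins carry cargo such as vesicles and mitochondria towards the terminal, and cytoplasmic dynein, working with its cofactor dynactin, carries cargo back to the cell body. Myosins move on actin filaments and serve shorter-range transport, endocytosis and contraction, in neurons above all in growth cones, spines and synapses. In mRNA, m6A is known to lie most often near stop codons and in long internal exons.

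Sites were found in 49 of the 116 protein-coding genes that RefSeq lists under these name patterns (42.2%, exact 95% interval 33.1% to 51.8%). The background share over all 21900 protein-coding genes was 28.3%. Motor genes are long, with a median span of 41.0 kb against 17.1 kb for all protein-coding genes, and the share with a site was higher in longer genes in both sets. Of motor genes under 20 kb, 5 of 30 had a site (16.7%), where 17.2% of all such genes did (interval of the motor share 5.64% to 34.7%). Between 20 kb and 100 kb the count was 25 of 59 (42.4%, interval 29.6% to 55.9%), with a background of 38.5%. At 100 kb or more it was 19 of 27 (70.4%, interval 49.8% to 86.2%), with a background of 50.3%. Within each span class the background share lay inside the interval of the motor genes. With sites of at least 5% only, 22 of 116 motor genes had a site (19.0%), and the background was then 17.7%. A gene without a site may be unmethylated, weakly expressed or poorly covered, and these cannot be told apart in a table without expression or coverage.

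**Figure D1:**
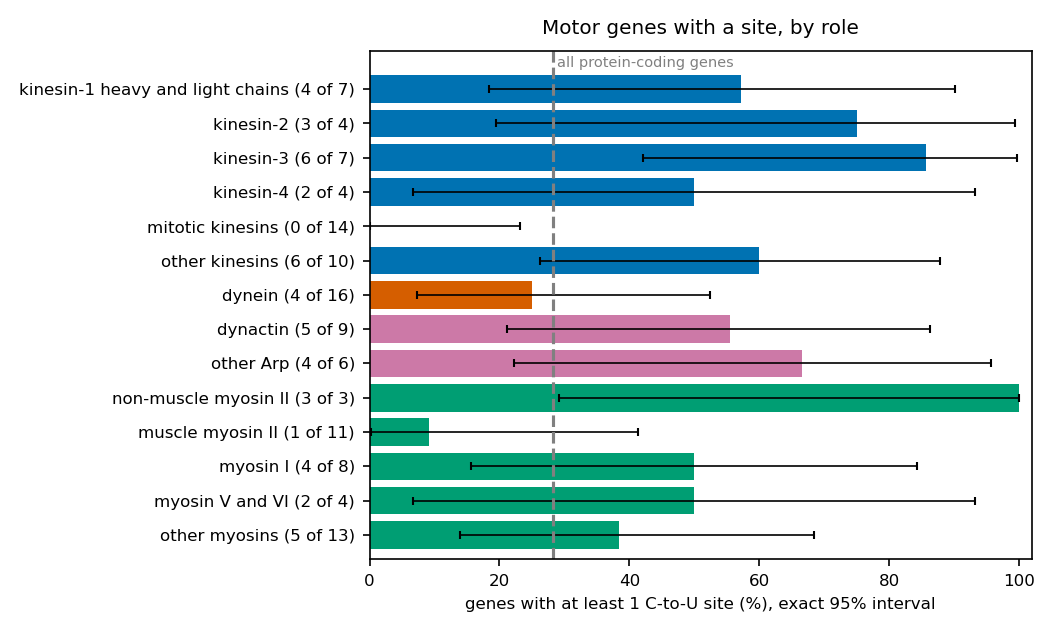
Percent of protein-coding motor genes with at least 1 site, by role, with exact 95% intervals (lines) and the counts in brackets; the dashed line is the share over all protein-coding genes (28.3%). Kinesin-3 had 6 of 7 genes with a site and the mitotic kinesins 0 of 14. Roles were assigned after the values had been seen, and the mitotic kinesins are grouped by function.

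Sites were unevenly shared among roles, as the plot of shares by role shows. Most roles follow textbook families, but the mitotic kinesins are grouped by function and come from several families. Their count of 0 of 14 depends on that grouping. All roles were assigned after the values had been seen, so their counts and intervals are descriptions. Gene spans were not taken into account in them. Of 42 kinesin heavy chain genes, 20 had a site (73 sites). Kinesin-3 motors, which carry synaptic vesicle precursors and endosomes, had 6 of 7 genes with a site and 41 sites. Of the kinesins that work mainly in cell division, 0 of 14 had a site: Kif4, Kif11, Kif14, Kif15, Kif18a, Kif18b, Kif20a, Kif20b, Kif22, Kif23, Kif2b, Kif2c, Kifc1 and Kifc5b. Kif2a, which had 1 site, was counted with the other kinesins and not here. Of 11 muscle myosin heavy chain genes, the smooth muscle gene Myh11 had sites and the 10 striated muscle or related genes Myh1, Myh2, Myh3, Myh4, Myh6, Myh7, Myh7b, Myh8, Myh13 and Myh15 had 0. All 3 non-muscle myosin II genes had a site. Among 16 cytoplasmic dynein genes 4 had a site (25%, interval 7.27% to 52.4%). Among 9 dynactin genes 5 did (55.6%, interval 21.2% to 86.3%). The background share over all protein-coding genes was 28.3%. The interval lay above it for kinesin-3 and non-muscle myosin II and below it for the mitotic kinesins. For every other role the interval held the background share.

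Within the motor genes the sites were concentrated in a few. Kif1a, Kif1b and Myo6 had 12 sites each, a number that 127 of the 6929 listed genes reached. Kif21b had 9, Kif13b and Myh11 7 each, Dync1h1, Myo1e and Myo5a 6 each, and Actr1a and Kif13a 5 each. These 11 genes (22.4% of the motor genes with a site, where 13.5% of all listed genes have at least 5 sites) held 87 of the 163 sites. A single site was found in 15 of the 49 genes (30.6%), where 49.2% of all listed genes have 1. Across the 49 genes longer genes tended to have more sites (Spearman's rho = 0.34, given as a description, since all genes share the same libraries), as it did across all 6196 protein-coding genes with a site (0.27).

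**Figure D2:**
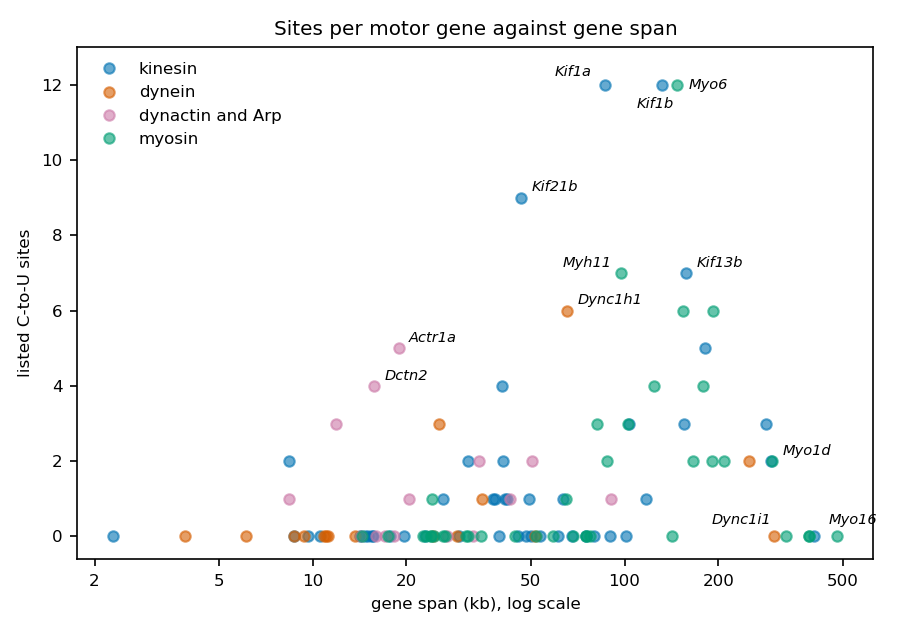
Number of listed sites (vertical axis) against gene span in kb (horizontal axis, log scale) for the 116 protein-coding motor genes, coloured by family. Kif1a, Kif1b and Myo6 lie highest with 12 sites each, while Myo16 (480.8 kb) and Dync1i1 (302.4 kb) are among the long genes with 0.

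The count did not follow span in every gene. The dynactin genes Actr1a (18.9 kb, 5 sites) and Dctn2 (15.7 kb, 4 sites) are short. The longest motor gene with a site was Myo1d (297.9 kb), and all motor genes longer than that had 0 sites. Those were Myo16 (480.8 kb), Kif26b (403.7 kb), Myo3a (390.8 kb), Myo3b (390.1 kb), Myo5b (330.3 kb) and Dync1i1 (302.4 kb). The short and the long examples were all picked out after their counts were seen. Their expression and coverage are unknown, and why their counts differ was not tested. Dync1i1 encodes the intermediate chain of dynein that is prominent in neurons.

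Editing levels were low. The median over the 163 motor sites was 2.67% (order-statistic 95% interval 2.27% to 3.17%), with quartiles of 1.71% and 4.04%, and the median over all 17755 sites was 3.64%. Levels under 2% made up 54 of 163 motor sites (33.1%), where 24.6% of all sites lie that low. Levels of 10% or more were listed for 16 motor sites (9.82%, interval 5.72% to 15.5%) in 13 genes, and the background was 14.9%. Sites of genes with many sites were lower than sole sites in the list as a whole (median 2.67% in genes with at least 5 sites, 6.06% in single-site genes), and the motor genes had medians of 2.42% (87 sites) and 3.77% (15 sites) in the same classes. Coverage is not given, and how low a level could be listed for each gene is therefore unknown.

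**Figure D3:**
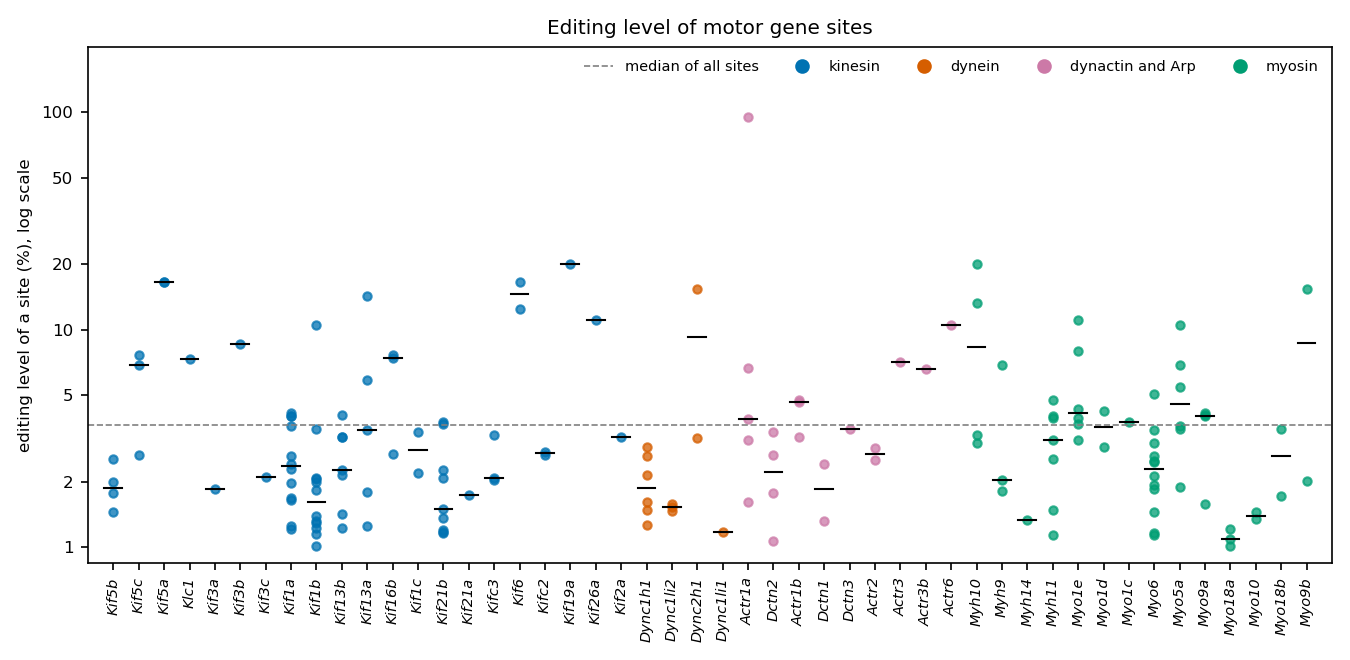
Editing level in percent (log axis) of motor gene sites, by gene and coloured by family (1 gene is not shown); black bars are gene medians and the dashed line is the median of all listed sites (3.64%). Most sites lie between 1% and 10%, and 1 site of Actr1a lies at 94.9%.

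Kinesin-1, the founding kinesin and a carrier of mitochondria and many vesicles, is built from heavy chains encoded by Kif5a, Kif5b and Kif5c and from light chains that bind cargo. The 3 heavy chain genes differed in level. Kif5a, the form enriched in neurons (chromosome 10, 127225695 to 127266348, minus strand), had 2 sites, both at 16.7%, at 2.28 kb and 18.0 kb from the 3′ end. Kif5c, also enriched in neurons (chromosome 2, 49619286 to 49774778), had 3 sites at 7.69%, 2.67% and 6.90%. Kif5b, the form found in all tissues, had 4 sites at 1.45%, 1.99%, 2.55% and 1.77%. With 2 to 4 sites per gene, unknown coverage and no error on any level, the difference between the 3 genes was not tested. The 4 Kif5b sites lay within 3.69 kb of each other, 12.2 kb to 15.9 kb from the 3′ end, and 0 were nearer. The light chain gene Klc1 had 1 site at 7.32%, and Klc2, Klc3 and Klc4 had 0.

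Kinesin-2 moves cargo in dendrites and in cilia. Its heterodimer genes Kif3a, Kif3b and Kif3c had 1 site each, at 1.85%, 8.57% and 2.11%, each 9.87 kb or more from the 3′ end. Kif17, the homodimeric member known for carrying an NMDA receptor subunit, had 0 sites.

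Kinesin-3 accounted for the most sites of any role. Kif1a, the axonal carrier of synaptic vesicle precursors (chromosome 1, 93015455 to 93102039, minus strand), had 12 sites from 1.22% to 4.14%, with a median of 2.36%. Its 5 sites in the last 5 kb averaged 2.97% and its other 7 sites 2.29%. The 4 sites farthest upstream, 28.1 kb to 47.5 kb from the 3′ end, were at 1.97%, 1.68%, 1.22% and 1.26%, all below the median of the gene. Kif1b, whose products carry synaptic vesicle precursors or mitochondria (chromosome 4, 149176319 to 149307773, minus strand), had 12 sites from 1.02% to 10.5%, with a median of 1.62%. Here the order was the other way round: the 6 sites in the last 5 kb averaged 1.65% and the other 6 averaged 3.25%. The average of these other sites was raised by 1 site at 10.5%, 60.1 kb from the 3′ end. The next highest site of Kif1b, at 3.51%, also lay outside the last 5 kb. Kif1c had 2 sites, at 2.20% and 3.39%.

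The endosomal kinesin-3 genes were spread more widely. Kif13a had 5 sites whose listed levels were lower the farther they lay from the 3′ end: 14.3% at 0.992 kb, 5.88% at 1.52 kb, 3.45% at 3.72 kb, 1.80% at 50.2 kb and 1.26% at 76.2 kb. Its paralog Kif13b had 7 sites from 1.23% to 4.08% (median 2.27%) that covered 155.4 kb of its 157.1 kb span, the first of them 0.150 kb from the annotated start. Kif16b, which binds early endosomes, had 3 sites at 7.69%, 2.7% and 7.41%, all at least 85.7 kb from the 3′ end. Kif28 had 0 sites.

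Of the kinesin-4 genes, Kif21b, a dendritic motor that also acts on microtubule growth, had 9 sites from 1.16% to 3.76% (median 1.5%), 2 of them in the last 5 kb. Its paralog Kif21a had 1 site at 1.74% although its span is 117.1 kb against 46.6 kb for Kif21b. Kif7 and Kif27 had 0. The remaining kinesins included some of the higher levels, each in a gene with 1 or 2 sites whose coverage is unknown. Kif19a and Kif6, motors known from motile cilia, had 1 site at 20% and 2 sites at 12.5% and 16.7%. Kif26a, a kinesin-like protein without motor activity, had 1 site at 11.1%. Kif2a, a microtubule depolymerase, had 1 site at 3.23%. The minus-end directed kinesin genes Kifc2 and Kifc3 had 2 sites (2.67% and 2.74%) and 3 sites (2.08%, 3.29% and 2.04%).

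Cytoplasmic dynein was represented by its heavy and light intermediate chains. Dync1h1, the heavy chain that holds the motor domain (chromosome 12, 110601395 to 110666944, plus strand), had 6 sites from 1.27% to 2.90% with a median of 1.89%. None lay in the last 5 kb: 4 were 39.9 kb to 50.5 kb and 2 were 8.47 kb and 10.5 kb from the 3′ end. The light intermediate chains, which bind cargo adaptors, had 1 site at 1.18% in Dync1li1 and 3 sites at 1.53%, 1.59% and 1.47% in Dync1li2. The Dync1li1 site lay 0.425 kb from the annotated start. Dync2h1, the heavy chain of the dynein of cilia, had 2 sites at 3.17% and 15.4%, both more than 100 kb from the 3′ end. The other 12 dynein genes had 0 sites: the intermediate chain genes Dync1i1 and Dync1i2, Dync2li1, and the light chain genes Dynll1, Dynll2, Dynlrb1, Dynlrb2, Dynlt1a, Dynlt1b, Dynlt1c, Dynlt1f and Dynlt3. The Dynlt1 genes are near-identical copies of each other, so reads from them could have been split or discarded in the authors' alignment.

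Dynactin links dynein to cargo. Its core is a short filament of the actin-related protein encoded by Actr1a, or by Actr1b in a minor form, and both genes had sites. Actr1a (chromosome 19, 46376813 to 46395741, minus strand) had 5 sites, at 3.91%, 94.9%, 6.67%, 1.61% and 3.12% in order from the 3′ end. The site at 94.9% (position 46378003, 1.19 kb from the 3′ end) was the highest of all 17755 sites, of which 14 reached 50%. Whether a genomic variant read as a conversion contributes to that value was not tested. The next highest motor sites were at 20%. The nearest neighbour of the Actr1a site, 137 nt away on the same strand, was at 6.67%. The mean of Actr1a was 22.0% ± 40.8 (SD across 5 sites) with that site and 3.83% over the other 4. Actr1b had 3 sites at 4.65%, 3.23% and 4.76%, all in the last 5 kb. Of the shoulder and projecting arm subunits, Dctn1, which binds microtubules and dynein, had 2 sites (1.32% and 2.41%), Dctn2 4 sites (1.07%, 1.77%, 3.39% and 2.67%) and Dctn3 1 site (3.51%). The pointed-end complex genes Dctn4, Dctn5, Dctn6 and Actr10 had 0.

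The remaining actin-related proteins belong to other machines. Actr2 and Actr3 encode the core pair of the complex that nucleates branched actin, and had 2 sites (2.86% and 2.53%) and 1 site (7.14%). Actr3b, a paralog of Actr3, had 1 site at 6.65%. Of the actin-related proteins of chromatin remodelling complexes, Actr6 had 1 site at 10.5%, and Actr5 and Actr8 had 0. Without these 6 genes, 45 of 110 motor genes had a site (40.9%).

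Myo6 had the most sites of any myosin gene. Myo6, the myosin that walks towards the minus end of actin and acts in endocytosis (chromosome 9, 80164976 to 80311729, plus strand), had 12 sites from 1.14% to 5.08%, with a median of 2.30%. Of these, 10 lay in the last 5 kb, between 0.988 kb and 4.01 kb from the 3′ end, and they averaged 2.62%. The other 2 were 41.7 kb and 56.8 kb upstream, at 1.17% and 1.46%. Myo5a, the carrier of organelles into dendritic spines, had 6 sites from 1.90% to 10.5% (median 4.55%) and 0 in the last 5 kb, the nearest at 5.77 kb. Its paralogs Myo5b and Myo5c had 0 sites.

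The class I myosins tether membranes to actin. Among them, Myo1e had 6 sites over 191.5 kb of its 192.7 kb span: 11.1% and 8% near 1 kb from the 3′ end, then 3.70%, 3.92% and 4.35%, and 3.12% at 0.223 kb from the annotated start. Myo1d (2.90% and 4.26%) and Myo1c (3.77%) had fewer. Myo1a, Myo1f, Myo1g and Myo1h had 0. Of the class IX genes, Myo9a had 4 sites (4%, 4.17%, 1.59% and 4.08%) and Myo9b 2 (2.02% and 15.4%). Myo18a (1.09%, 1.21% and 1.02%) and Myo10 (1.35% and 1.45%) stayed near the lowest level in the list, which is 1%, and Myo18b had 2 sites (3.51% and 1.73%). Myo15, Myo15b, Myo16, Myo19, Myo3a, Myo3b, Myo7a and Myo7b had 0.

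The non-muscle myosin II genes, which drive contraction of actin in most cells, differed in level. Myh10, the form most abundant in brain (chromosome 11, 68691915 to 68816626, plus strand), had 4 sites at 3.03%, 20%, 13.3% and 3.30%, with the 2 high ones 29 nt apart. Myh9 had 3 sites at 6.90%, 1.82% and 2.04%, and Myh14 had 1 at 1.33%. Myh11, the myosin of smooth muscle and a marker of vessel wall cells (chromosome 16, 14194527 to 14292188, minus strand), had 7 sites from 1.14% to 4.76% with a median of 3.12%. It had more sites than any of the 3 non-muscle genes. The endothelial markers Cldn5 and Flt1, also of vessels, had 7 and 10 sites. Whether vessel cells supplied the Myh11 sites was not tested.

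Positions along the genes were set beside those of all listed sites, with no test of the difference. All 163 fell inside the span of their gene, and 55 of them (33.7%, interval 26.5% to 41.6%) were in the last 5 kb, where 49.7% of all sites inside spans lie. The median distance to the 3′ end was 11.7 kb for motor sites and 5.10 kb for all sites. The background share in the last 5 kb also exceeded the motor share at a minimum of 5% (43.8% of motor sites, 61.0% of all sites) and for windows of 2 kb (19.6% and 29.9%) and 10 kb (43.6% and 61.1%). The long spans of the motor genes were not taken into account in these shares. Of the 49 genes, 25 had no site in the last 5 kb, 5 had all their sites there and 19 had sites in both parts. Of all 6929 listed genes, 1619 had sites in both parts, and the other counts are not given for the list. Such counts depend on the number of sites per gene and on span, which differ between the motor genes and the list. In the first 1 kb of genes of 20 kb or more lay 3 of 148 motor sites (2.03%), where 6.05% of all such sites lie: those of Kif13b, Myo1e and Dync1li1 described above.

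**Figure D4:**
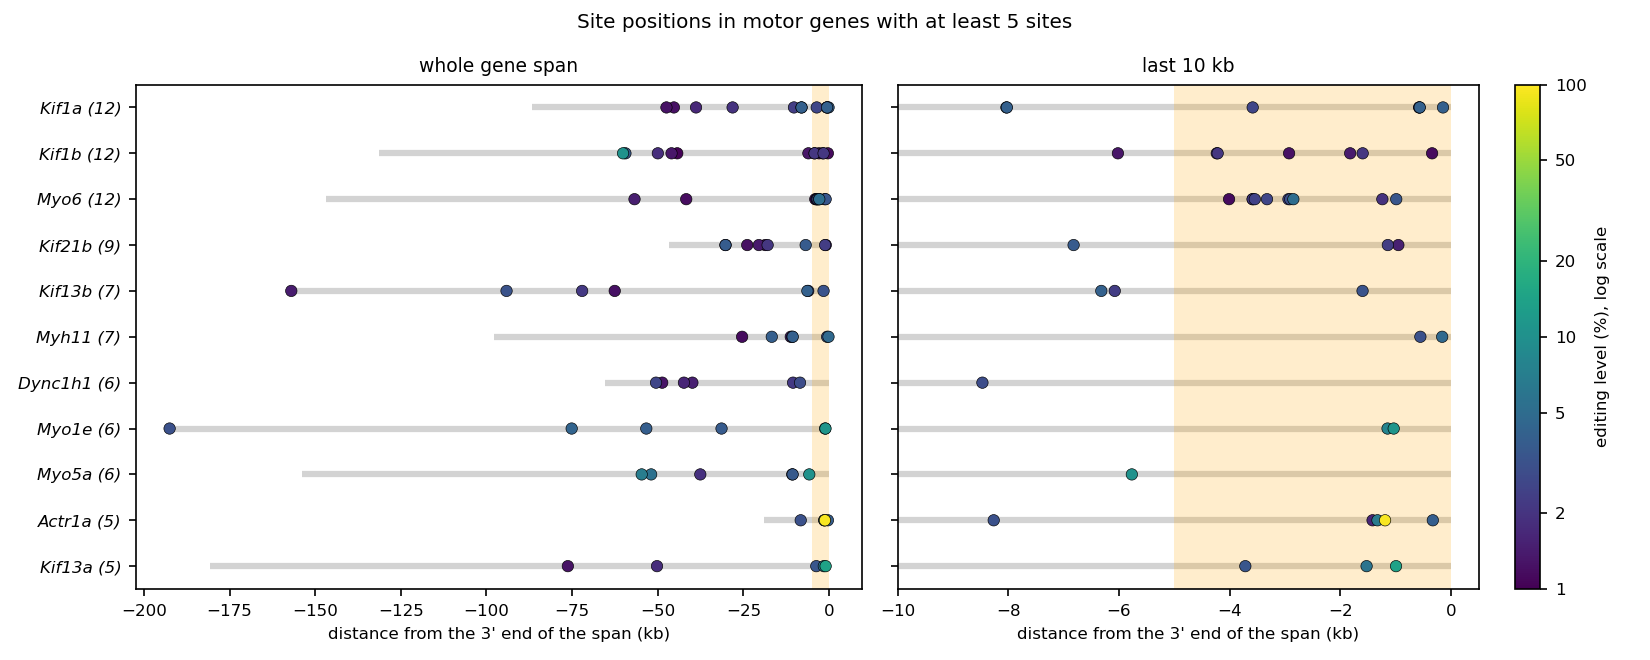
Position of each site as distance from the 3′ end of the gene span in kb (left, whole span as a grey bar; right, last 10 kb) in the 11 motor genes with at least 5 sites, coloured by editing level on a log scale; the shaded band is the last 5 kb. Myo6 has 10 of 12 sites in the band, and Dync1h1 and Myo5a have 0 of 6 each.

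In the 19 motor genes with sites in both parts, the mean level was higher near the end in 14 (73.7%), lower in 3 (Kif1b, Kif21b and Kifc3) and equal in 2 (Dync1li2 and Kif5a). The background share of genes with the higher mean near the end was 70.9%, close to that of the motor genes. The median difference was 1.19 percentage points, and over all 1619 listed genes with sites in both parts it was 1.36 points. The widest gaps after Actr1a were those of Myo9b (15.4% against 2.02%, 1 site each), Kif13a (7.87% against 1.53%) and Myo1e (9.56% against 3.77%). Of the 16 motor sites at 10% or more, 6 lay in the last 5 kb. The matching share over all listed sites at 10% or more is not given here, so this count is a description only.

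Some motor sites formed tight groups. Another listed site lay within 100 nt on the same strand for 25 of 163 motor sites (15.3%, interval 10.2% to 21.8%), where 22.9% of all sites have such a neighbour. Within 20 nt the shares were 10.4% of motor sites and 8.72% of all sites. There were 14 neighbouring pairs within 100 nt, in 9 genes, and their levels differed by 0.06 to 6.67 percentage points. The closest were 2 nt apart, in Kif21b (3.76% and 1.16%) and in Myo6 (2.13% and 1.85%). Kif1a had 3 sites in a row, 6 nt and 5 nt apart, at 4.14%, 2.42% and 1.65%, and a further pair 8 nt apart at 4% and 3.60%. Sites of 1 group can be read from the same RNA molecules, so they are not independent.

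The partners of the motors, a list of 57 cargo adaptors and regulators, had sites in 40 genes (70.2%, interval 56.6% to 81.6%), beside the background of 28.3%. The list was drawn up with earlier results of these data known, and gene spans were not taken into account. The 2 shares are therefore a description, and their difference was not tested. These 40 genes held 120 sites with a median level of 3.26%. Htt, the huntingtin gene, whose product scaffolds dynein and kinesin on vesicles, had 9 sites (mean 6.29% ± 4.43, SD across sites). Nin, a dynein adaptor of the centrosome, had 8 (6.01% ± 4.68), and Pafah1b1, the dynein regulator mutated in lissencephaly, had 8 (3.61% ± 2.12), 6 of them in the last 5 kb. The adaptors that couple mitochondria to motors, Trak1 and Trak2, had 6 sites (3.10% ± 2.10) and 5 sites (10.2% ± 6.15), and all 5 of Trak2 were in the last 5 kb. Spag9, a kinesin and dynein adaptor, had 6 (2.55% ± 2.16), and Numa1, the dynein anchor of the mitotic spindle, had 6 (1.70% ± 0.32). The dynein adaptor Bicd2 had 5 (8.11% ± 12.4, the highest at 30%), the kinase gene Rock2 5 (6.35% ± 5.99) and the calmodulin gene Calm3 5 (1.93% ± 0.87). Of the 15 axonemal dynein heavy chain genes, which beat cilia and flagella, Dnah7b had 2 sites (4% and 14.3%) and 14 had 0. Dnah7b has close copies in Dnah7a and Dnah7c, so the placing of its reads is uncertain.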

How the data were processed

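Nuclei sorted for NeuN were sequenced in 2 libraries of 1 group. Per the labels' protocols the library kit was one for total RNA that keeps the strand, although another label field names polyA RNA. Per the submitters' processing notes, STAR 2.7.5 was used for alignment, on build mm10. The series description names Bullseye for calling C-to-U sites; no source used here gives its settings, control or coverage minimum. The authors deposited 1 table for both libraries, in which each site has an editing level as a fraction; it was multiplied to percent. The list stops at 1%.

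Symbols were matched to RefSeq genes of GRCm38.p6, whose chromosomes are those of mm10, and all 49 motor genes matched. The table gives gene spans but no exons. Site positions are 1-based: of 160 listed sites that fall in RefSeq promoter windows, 160 are a C on the site's strand. Of the 163 motor sites, 118 had a gene strand in RefSeq and all 118 were on it. Another gene's span covered 8 motor sites, in each case a long noncoding RNA on the other strand. No genome sequence was used, so sequence around sites is not shown, and 0 motor sites lay in a promoter window.

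Values were computed with Python 3.11.15, pandas 2.3.3 and SciPy 1.17.1, and the counting was tested on simulated data. No test between conditions was possible, so shares and medians are given beside those of the whole list. Members, gene lists and alternatives were chosen with earlier results of these data known. Named genes were the 20 motor genes with the most sites, those of the 10 highest sites, every dynein, dynactin, kinesin light chain and actin-related gene with a site, kinesins and myosins with a site at 10% or more, paralogs of these, and the 10 partner genes with the most sites; the other motor genes were added to account for the members, except 1 gene whose values are counted in the totals but not reported here. Alternatives were a minimum level of 2% or 5%, other windows and distances, one value per gene, and omission of single genes or gene groups.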

Additional observations from a re-analysis of the deposited data

How the results depend on the processing

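Of 33 recomputed values, 23 stayed within the 95% interval of the reported value or, for counts of sites, within 1.5 times of it, and 10 moved further. At a minimum level of 5% the share of motor genes with a site was 19.0%, the number of sites 32, the share of sites in the last 5 kb 43.8%, the share with a neighbour within 100 nt 6.25% (12.5% of all sites) and the share of partner genes with a site 42.1% (17.7% of all protein-coding genes). The median level was 3.46% over gene means and 4.26% over the highest site of each gene, where all listed genes gave 5% and 6.45%. The share near the 3′ end was 19.6% for a window of 2 kb and 43.6% for 10 kb, and the share with a neighbour was 30.7% within 500 nt, where 39.0% of all sites had one. The omission of Kif1a, of Actr1a (median only), of the 6 actin-related genes outside dynactin, and of the 8 sites under another gene's span moved none of these values further than that; the last and that of Actr1a were chosen after seeing the data. No paired analysis was possible because there is 1 group and the table holds no value per library; for the same reason no library could be left out.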
